A study of Mus musculus with 12 samples.

Results

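Germline genes silenced by DNA methylation are genes that sperm and egg precursors use and that body cells keep off. The 10 genes described here include *Ddx4*, *Mael*, *Tdrd1* and *Asz1* of the germ granule and piRNA machinery, and *Dazl*, an RNA-binding protein of germ cells. The others are *Sycp1* and *Sycp3* of the synaptonemal complex, *Hormad1* of the meiotic chromosome axis, and *Tex101* and *Stk31* of testis germ cells. All 10 were chosen by name, and every probe set that carries one of their symbols alone was read. This gave 13 probe sets of 10 genes, since *Dazl*, *Asz1* and *Stk31* have 2 probe sets each, among 45037 probe sets tested and 18193 genes with a probe set of their own. All 10 genes were found.

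The samples are mouse embryonic stem (ES) cells of C57BL/6 background and cells differentiated from them, on 12 Affymetrix 430 2.0 arrays in 6 groups of 2. *Terc*-/- (KO) cells lack the RNA template of telomerase and came from late generations without it, labelled G3/4 at day 0, while the study's text calls the KO cells of the arrays G4. Wild-type (WT) cells were the comparison, both before differentiation (day 0) and on its days 8 and 15. At day 0 each array held a line of its own, and the KO lines F35 and A49 were at passage 11, the WT lines N12 and N33 at passage 12. The ES cells were kept on fibroblast feeders, and were differentiated without LIF as embryoid bodies in hanging drops that were later plated. For days 8 and 15 the labels call the replicates biological but tie no array to a line or a generation, so p-values measure only the spread between these samples. *Terc* itself was not analysed here.

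In the mouse embryo these genes come on in primordial germ cells. In other cells of the embryo their CpG-rich promoters are methylated by *Dnmt3a* and *Dnmt3b* around implantation, and *Dnmt1* copies the marks at each cell division. Before and beside this methylation, a variant Polycomb complex, PRC1.6, keeps many germline promoters off. It is brought to DNA by *Mga* with *Max*, which read the E-box CACGTG, and by *E2f6*, which reads sites with the core GCGGGA. ES cells are a known exception to tight silencing, since they resemble the early embryo and carry some transcripts of this class. The arrays measured RNA alone, and methylation of these promoters was not measured here.

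The promoters show what such a silencing system can act on, and those of the 4 genes that differed between KO and WT cells at day 15 are printed with that of *Tex101*, which did not pass the test. All are RefSeq windows of build GRCm38.p6, from 250 bases before the gene start to 50 bases after it, written 5′ to 3′ on the gene's own strand with every CpG in capitals. *Ddx4* lies at chr13:112652261-112652560 (minus strand), *Dazl* at chr17:50293571-50293870 (minus), *Mael* at chr1:166238695-166238994 (minus), *Sycp3* at chr10:88459337-88459636 (plus) and *Tex101* at chr7:24672001-24672300 (minus).
Ddx4: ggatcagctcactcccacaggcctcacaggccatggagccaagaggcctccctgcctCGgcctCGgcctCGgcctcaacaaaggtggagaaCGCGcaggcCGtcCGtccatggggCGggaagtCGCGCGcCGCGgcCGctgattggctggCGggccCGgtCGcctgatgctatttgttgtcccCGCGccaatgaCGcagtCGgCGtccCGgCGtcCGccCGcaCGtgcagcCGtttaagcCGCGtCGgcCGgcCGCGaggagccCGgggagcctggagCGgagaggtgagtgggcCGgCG
Dazl: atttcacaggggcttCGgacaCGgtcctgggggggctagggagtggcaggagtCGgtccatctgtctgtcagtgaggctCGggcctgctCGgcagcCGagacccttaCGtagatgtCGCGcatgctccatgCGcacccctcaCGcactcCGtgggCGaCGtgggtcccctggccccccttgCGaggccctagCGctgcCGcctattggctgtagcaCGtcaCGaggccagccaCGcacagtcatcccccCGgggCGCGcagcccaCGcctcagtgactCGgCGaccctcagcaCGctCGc
Mael: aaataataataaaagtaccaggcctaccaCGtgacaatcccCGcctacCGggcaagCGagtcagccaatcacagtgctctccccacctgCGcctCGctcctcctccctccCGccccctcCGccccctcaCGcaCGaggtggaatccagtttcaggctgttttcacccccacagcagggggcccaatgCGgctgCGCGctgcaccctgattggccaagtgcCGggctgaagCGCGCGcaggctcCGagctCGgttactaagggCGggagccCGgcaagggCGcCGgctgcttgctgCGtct
Sycp3: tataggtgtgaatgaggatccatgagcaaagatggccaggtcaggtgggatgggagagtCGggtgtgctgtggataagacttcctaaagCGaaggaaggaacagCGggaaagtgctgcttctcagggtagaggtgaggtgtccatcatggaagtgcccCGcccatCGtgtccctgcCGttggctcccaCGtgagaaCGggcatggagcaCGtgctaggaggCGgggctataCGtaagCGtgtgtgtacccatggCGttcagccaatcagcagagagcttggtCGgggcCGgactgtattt
Tex101: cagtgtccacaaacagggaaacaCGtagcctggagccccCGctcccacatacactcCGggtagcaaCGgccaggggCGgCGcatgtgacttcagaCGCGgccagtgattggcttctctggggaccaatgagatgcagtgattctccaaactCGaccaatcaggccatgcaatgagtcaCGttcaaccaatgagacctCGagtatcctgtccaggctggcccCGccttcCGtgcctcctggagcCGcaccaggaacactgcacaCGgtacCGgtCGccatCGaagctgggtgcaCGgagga

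The *Ddx4* window holds 38 CpGs, the most of the 10 genes, and its ratio of observed to expected CpG is 0.978. The windows of *Dazl*, *Mael*, *Tex101* and *Sycp3* hold 28, 24, 19 and 15. RefSeq gives 14 windows for the 10 genes, and these have a median of 24 CpGs and a ratio of 0.765. Over all 32851 windows in the table the median is 7 CpGs and the ratio 0.384, and over the 18109 windows of genes with a probe set it is 16 and 0.650. The CpG counts of the 4 printed genes that differed at day 15 lie on both sides of those of the other 6, whose first windows hold 17 to 29.

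A pair of short motifs was searched in each window on both strands, the E-box CACGTG, which reads the same on either strand, and GCGGGA. No match of one overlapped a match of the other. The E-box stands in a window of 7 of the 10 genes (70%), against 8.09% of all 27025 genes with a window and 10.2% of the 14452 that have a probe set. It lies 29 bases before the start of *Ddx4*, 223 before that of *Mael*, 94 before that of *Sycp1*, and 64 and 43 before that of *Sycp3*. GCGGGA or its reverse complement stands in 5 of the 10 (50%), *Ddx4*, *Mael*, *Sycp1*, *Sycp3* and *Hormad1*, against 22.1% of all genes and 32.9% of those with a probe set. In the windows of *Dazl*, *Asz1* and *Tex101* neither string of letters was found. These are matches of letters, and binding was not measured here.

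**Figure D1:**
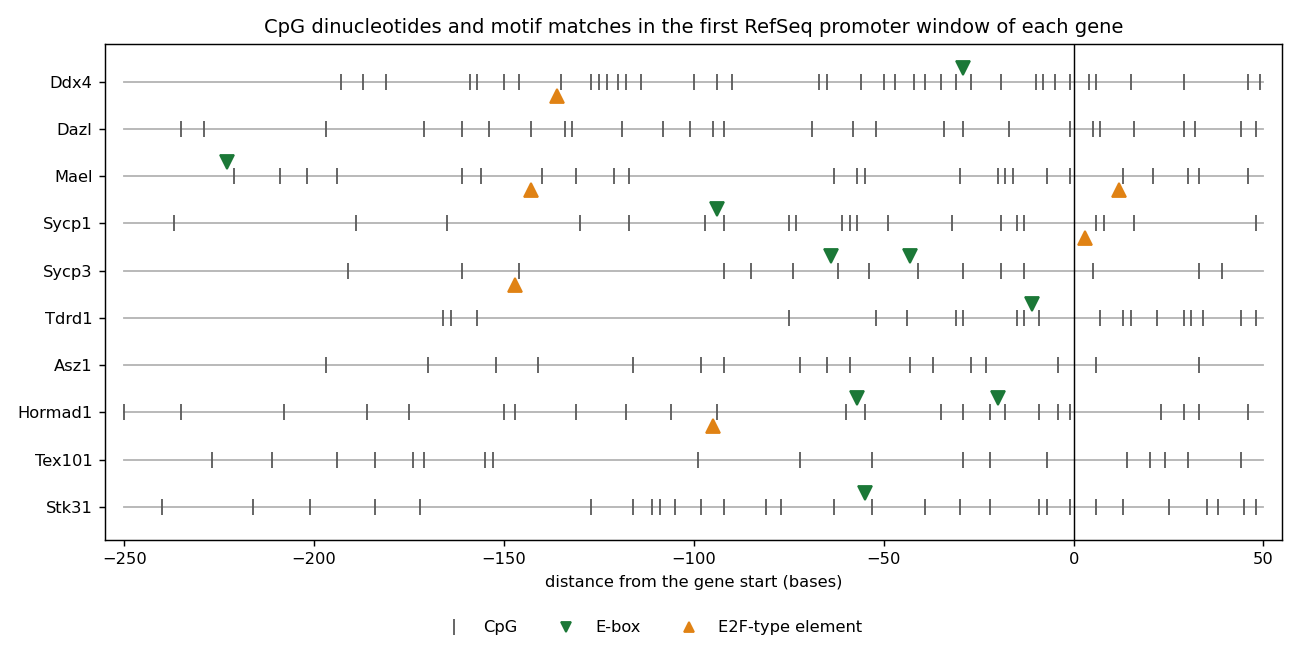
The map plots the first RefSeq window of each gene against distance from the gene start in bases, with each CpG as a tick, E-box matches as triangles pointing down and GCGGGA matches, labelled E2F-type element, as triangles pointing up. CpGs crowd most densely in *Ddx4* with 38, and the windows of *Dazl*, *Asz1* and *Tex101* have no triangle.

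An array gives each probe set a relative intensity on a linear scale, and precision is limited by having 2 arrays in a group. The 4 arrays of day 0 have a scale of their own, and their processing may differ. Their medians lie between 114 and 117, against 50.6 to 53.1 at days 8 and 15. Intensities were therefore compared only within a day or between days 8 and 15. For the view from day 0 onward, each probe set was placed as a percentile among the 45037 of its own array. Such a place also reflects how well the probes bind, so members are not ranked against each other. Detection calls were not used here, and the array quartiles serve in their stead. The RNA came from whole cultures, so fewer cells of a type and less RNA per cell cannot be told apart.

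In undifferentiated ES cells several of these genes were far from silent. *Ddx4*, *Sycp3* and *Mael* lay above the upper quartile on all 4 arrays of day 0, in KO and in WT cells. Of the 13 probe sets, 9 were above the array median on both KO arrays and 8 on both WT arrays. At day 8 only *Sycp3* was above the median on both arrays, in KO as in WT cells, and at day 15 no probe set was, in either genotype. Probe sets under the lower quartile on both arrays numbered 5 in KO cells and 7 in WT cells at day 8, and again 5 and 7 at day 15. At day 0 the data thus went against the word silenced for *Ddx4*, *Sycp3* and *Mael*, and the word is used here for what is known of these genes in body cells.

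Of the 13 probe sets, 8 were above the median on all 4 day 0 arrays, and 4 of these 8 (50%), *Mael*, *Hormad1* and both of *Stk31*, were under it on all 8 later arrays. Among all probe sets 1927 of 20990 (9.18%) did so. Since the day 0 arrays had another scale and minimum, a change with differentiation and a change with processing cannot be told apart in this count. *Mael* had a mean percentile of 79.8 over the day 0 arrays and reached at most 28.1 on a later one. *Hormad1* had 69.0 at day 0 and at most 18.6 later. The *Stk31* probe sets, 1425317_x_at and 1454138_a_at, had 59.5 and 60.3 at day 0 and at most 6.75 and 6.05 later. The first of them is of the x_at type, whose probes can also match other transcripts.

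**Figure D2:**
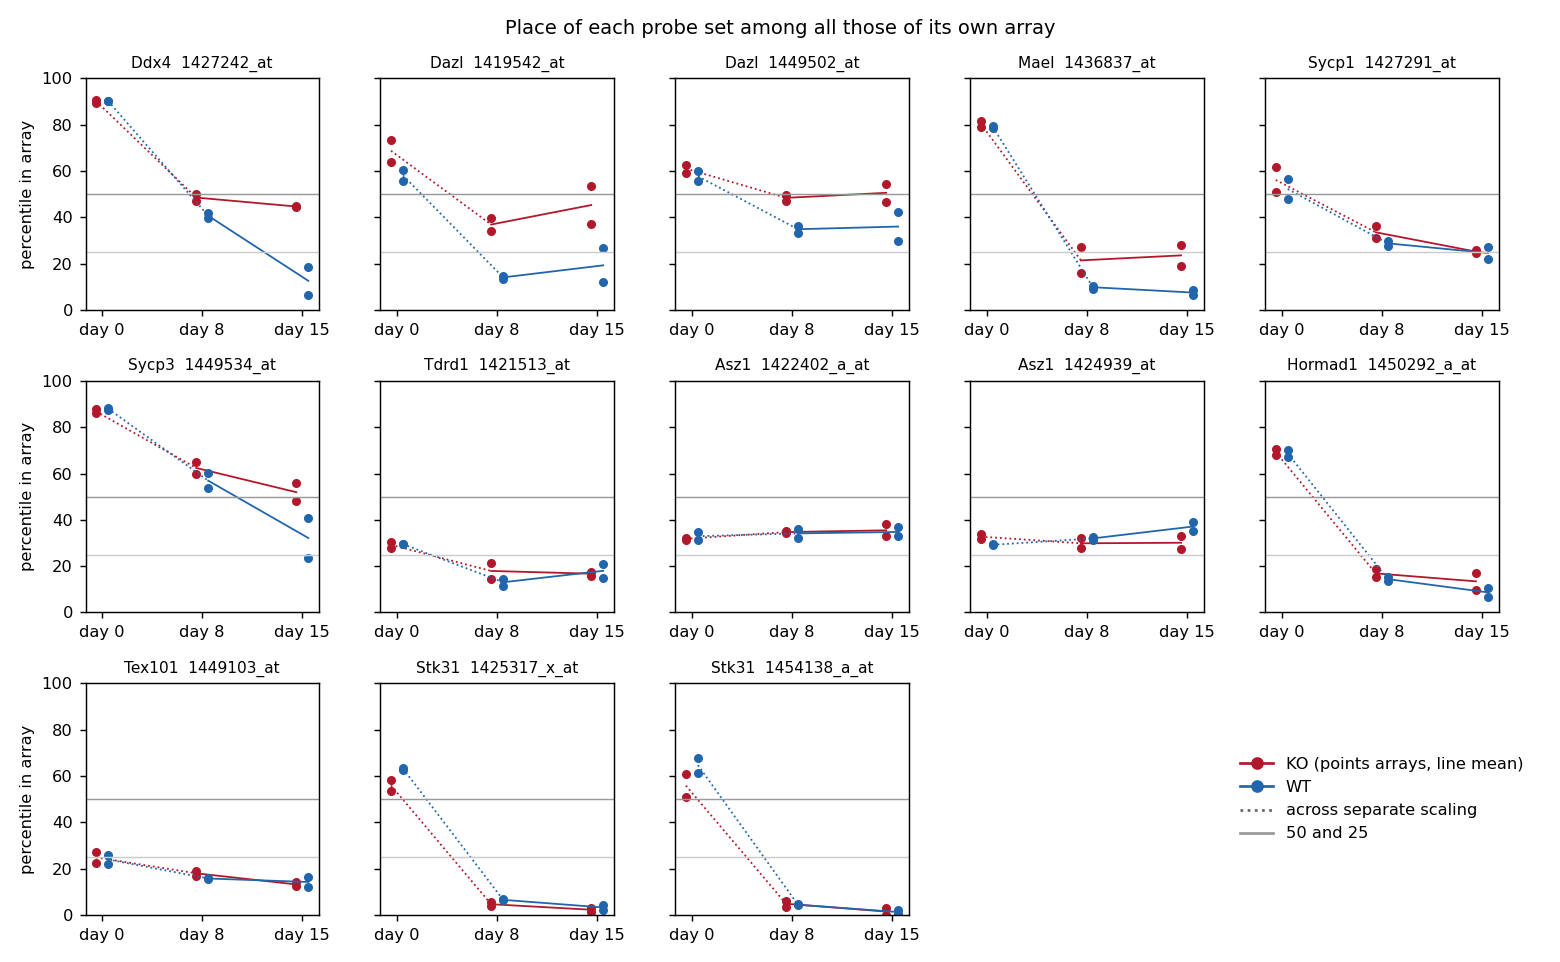
Each panel plots 1 probe set, with its percentile among all 45037 probe sets of the same array on the vertical axis and the day on the horizontal axis, KO in red and WT in blue, points for arrays and lines for group means. Dotted lines run from day 0 to day 8, whose arrays differ in scale. *Ddx4* falls on WT arrays to 6.56 and 18.6 at day 15, while both its KO arrays stand between the lower quartile and the median.

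At day 0 no probe set of the 10 genes passed the test between KO and WT lines. *Ddx4*, the germ cell RNA helicase, had intensities of 1237 and 1069 in KO cells, against 1179 and 1134 in WT cells. The log2 difference was -0.01 with a 95% interval of -0.55 to 0.53. *Sycp3*, a protein of the lateral elements of the synaptonemal complex, had 894 and 755 in KO cells, against 877 and 955 in WT cells. The KO and WT arrays overlapped for both genes.

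*Mael*, a germ granule protein needed for transposon silencing, had 448 and 541 in KO cells and 456 and 433 in WT cells at day 0. *Dazl*, an RNA-binding protein of germ cells, had 195 and 313 in KO cells on its probe set 1419542_at, against 162 and 138 in WT cells. Its log2 difference of 0.73 (standard error 0.34) did not pass, with a limma adjusted p of 0.605. On the other *Dazl* probe set, 1449502_at, the values were 162 and 184 in KO cells and 159 and 137 in WT cells. Both *Dazl* probe sets and 1424939_at of *Asz1* had both KO arrays above both WT arrays, 3 of 13, against 29.5% of all probe sets. *Stk31*, a kinase-like protein with a Tudor domain, read 157 and 130 in KO cells and 179 and 185 in WT cells on 1425317_x_at, a log2 difference of -0.35 (adjusted p = 0.530). This was the only one of the 13 with an unadjusted p under 0.05, against 8.59% of all probe sets. Fibroblast genes, which feeder cells would carry, summed to 12361 to 17592 in KO cells and 7828 to 11358 in WT cells at day 0, and their part in these values was not tested. Over all probe sets, limma called 0.0488% at day 0 in either direction. The methods' t-test called none of the 13 at day 0, with or without Benjamini-Hochberg adjustment.

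At day 8 most of the 13 probe sets read higher in KO than in WT cells, and none passed the test. Both KO arrays lay above both WT arrays for 8 of 13 probe sets, against 25.7% of all probe sets. *Dazl* came closest. On 1419542_at it had 28.2 and 34.5 in KO cells, against 12.3 and 12.9 in WT cells. The log2 difference was 1.31 (standard error 0.34, limma adjusted p = 0.109), and it was 0.82 on 1449502_at (adjusted p = 0.107), which had 46.3 and 51.2 in KO cells and 26.1 and 29.4 in WT cells.

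*Mael* followed at day 8 with 21.8 and 14.3 in KO cells, against 9.88 and 10.7 in WT cells, a log2 difference of 0.78 (adjusted p = 0.111). *Ddx4* had 46.0 and 52.1 in KO cells and 33.2 and 36.2 in WT cells, a difference of 0.50 (adjusted p = 0.404). *Tdrd1*, a Tudor protein that binds Piwi proteins in germ granules, had 13.5 and 17.6 in KO cells and 12.8 and 11.3 in WT cells, a difference of 0.36 (adjusted p = 0.347). The arrays did not overlap for any of these 3 genes, but all *Tdrd1* values lay under the lower quartile of their arrays. Of the 13 probe sets, 4 had an unadjusted p under 0.05, all higher in KO cells, against 13.9% of all probe sets. After adjustment limma called 1.13% of all probe sets at day 8 in either direction. The median log2 difference was 0.32 over the 13 and 0.03 over all probe sets.

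*Sycp3* had 105 and 81.4 in KO cells at day 8 and 84.1 and 59.6 in WT cells, and the arrays overlapped. *Sycp1*, the transverse filament protein that links the paired chromosomes, had 25.1 and 30.3 in KO cells and 21.2 and 22.9 in WT cells, a difference of 0.32 (adjusted p = 0.525). *Hormad1*, *Tex101*, *Stk31* and *Asz1* had log2 differences from -0.17 to 0.22 over their 6 probe sets at that day.

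At day 15, 5 of the 13 probe sets were higher in KO cells and none was lower, for the 4 genes *Ddx4*, *Dazl*, *Mael* and *Sycp3*. Over all probe sets limma called 6.45% higher and 6.45% lower at this day. The median log2 difference over the 13 probe sets was 0.07, beside 0.04 over all probe sets. By genes, each read from its brightest probe set, 4 of 10 were higher in KO than in WT cells, with a median of 0.27. The other 6 genes had differences between -0.06 and 0.46 on those probe sets.

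Of the 13 probe sets, that of *Ddx4* had the largest difference. It read 42.5 and 42.8 in KO cells at day 15, against 7.74 and 15.3 in WT cells. The KO arrays agreed closely and lay far above both WT arrays. The log2 difference was 1.97 with a standard error of 0.25, a 3.92-fold higher level in KO cells (limma adjusted p = 0.000789). Both WT values lay under the lower quartile of their arrays, and both KO values between the lower quartile and the median.

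*Mael* had 16.6 and 22.4 in KO cells, against 7.74 and 9.48 in WT cells at day 15. All 4 values are low, 3 of them under the lower quartile of their array, and the groups did not overlap. The log2 difference was 1.17 with a standard error of 0.21 (limma adjusted p = 0.00471). As means these are 19.5 ± 4.14 in KO cells and 8.61 ± 1.23 in WT cells (SD, n = 2 each).

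*Dazl* was read by both of its probe sets. On 1419542_at it had 32.6 and 60.6 in KO cells, against 11.9 and 20.9 in WT cells, and on 1449502_at 46.7 and 63.9 in KO cells, against 23.8 and 38.0 in WT cells. Both probe sets put KO replicate 2 highest and WT replicate 1 lowest, and neither overlapped. The log2 differences were 1.49 (standard error 0.34, limma adjusted p = 0.0180) and 0.86 (standard error 0.22, adjusted p = 0.0239).

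*Sycp3* had 67.5 and 48.5 in KO cells, against 18.9 and 35.9 in WT cells at day 15. The groups did not overlap, but KO replicate 2 and WT replicate 2 were nearer to each other than the replicates of either group. The log2 difference was 1.13 with a standard error of 0.29 (limma adjusted p = 0.0286). KO replicate 1 was the only array of day 15 on which *Sycp3* stood above the array median.

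The 5 calls depended on single arrays and on the handling of low values. Without WT replicate 1 only *Ddx4* and *Mael* passed, without KO replicate 1 *Sycp3* was lost, and without KO replicate 2 both *Dazl* probe sets were lost. Without WT replicate 2 *Hormad1* joined the 5. *Ddx4* passed with any 1 array of day 15 left out, at 1.48 to 2.46. With 32 added to every value before the log2, *Ddx4* (log2 difference 0.78) and *Dazl* on 1449502_at (0.47) passed, and with only the 4 arrays of day 15 in the fit *Ddx4* and *Mael* did. The methods' t-test, with 2 arrays in each group, called none after adjustment, of the 13 or of all probe sets. Before adjustment it put *Mael* alone under the methods' threshold at day 15, and *Ddx4* and both *Dazl* probe sets at day 8, all higher in KO cells. That test stands in the paper's statistics section. Its array section names no test, and kept probe sets that changed by at least 1.8-fold. By the limma fit the 5 differed 3.92-fold (*Ddx4*), 2.82-fold and 1.81-fold (*Dazl*), 2.25-fold (*Mael*) and 2.20-fold (*Sycp3*) at day 15. The 1.81 lies close to that cut-off, and the rest of the 13 lay between 0.783 and 1.38.

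**Figure D3:**
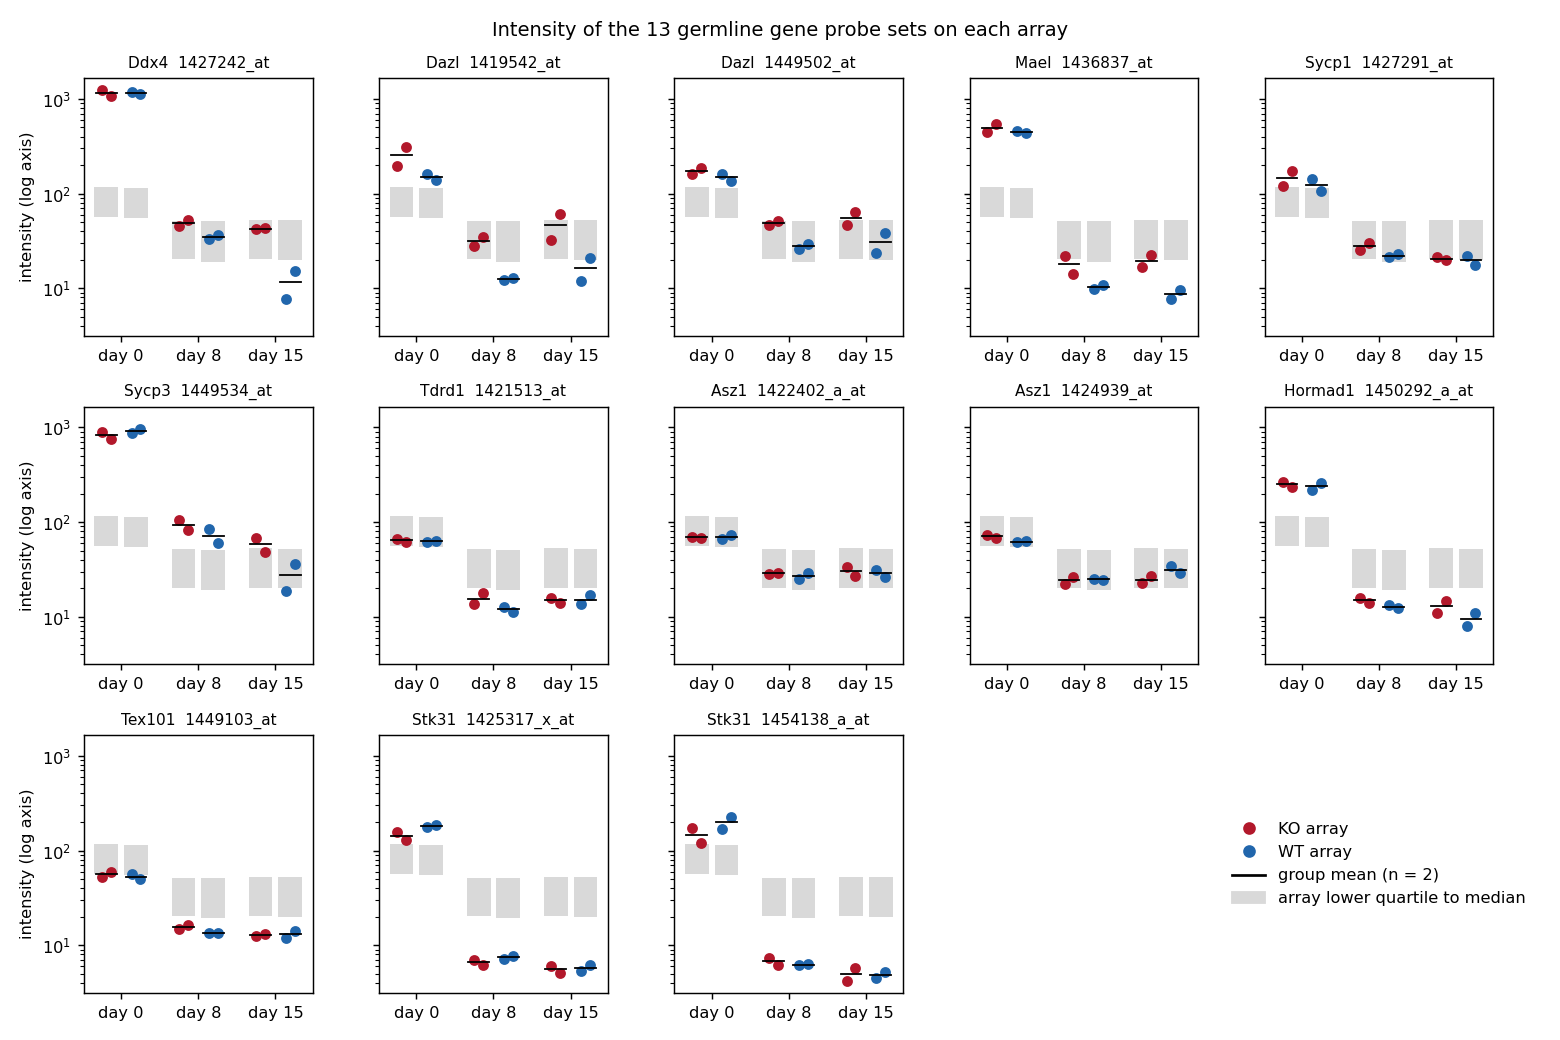
Each panel plots the intensity of 1 probe set (log axis) on every array by day, KO in red left of WT in blue, with the group mean as a line and a grey box from the lower quartile to the median of the arrays. At day 15 the KO points stand above the WT points in the panels of *Ddx4*, *Dazl*, *Mael* and *Sycp3*, and the panels of *Tdrd1*, *Tex101* and *Stk31* show points at or under the grey box on all later days. The boxes of day 0 stand higher, on arrays of another scale.

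The remaining members did not pass at day 15. *Hormad1*, a protein of the unsynapsed meiotic axis, had 11.0 and 14.8 in KO cells and 7.91 and 10.9 in WT cells. The arrays did not overlap, though by a small gap, and the log2 difference was 0.46 (adjusted p = 0.135). *Asz1*, a germ granule protein of the piRNA pathway, had differences of opposite sign on its 2 probe sets. On 1424939_at it had 22.5 and 26.8 in KO cells and 34.2 and 28.8 in WT cells, a difference of -0.35 (adjusted p = 0.132). On 1422402_a_at it had 33.7 and 26.6 in KO cells and 31.1 and 26.3 in WT cells, a difference of 0.06.

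*Sycp1* had 21.4 and 19.7 in KO cells and 21.8 and 17.6 in WT cells at day 15, with a log2 difference of 0.07 and a 95% interval of -0.38 to 0.51. It belongs to the same structure as *Sycp3*, and the difference between these genes was not tested. *Tdrd1* had 15.8 and 14.0 in KO cells and 13.6 and 16.8 in WT cells. *Tex101*, a surface protein of male germ cells, had 12.6 and 13.0 in KO cells and 11.9 and 14.2 in WT cells. The 2 probe sets of *Stk31* lay between 4.17 and 5.98 in KO cells and between 4.53 and 6.18 in WT cells, near the lowest value of any probe set on these arrays, 3.45 to 3.83. Such values stand at the floor of these arrays. Both KO arrays lay above both WT arrays for 6 of the 13 probe sets at day 15, against 30.8% of all probe sets.

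**Figure D4:**
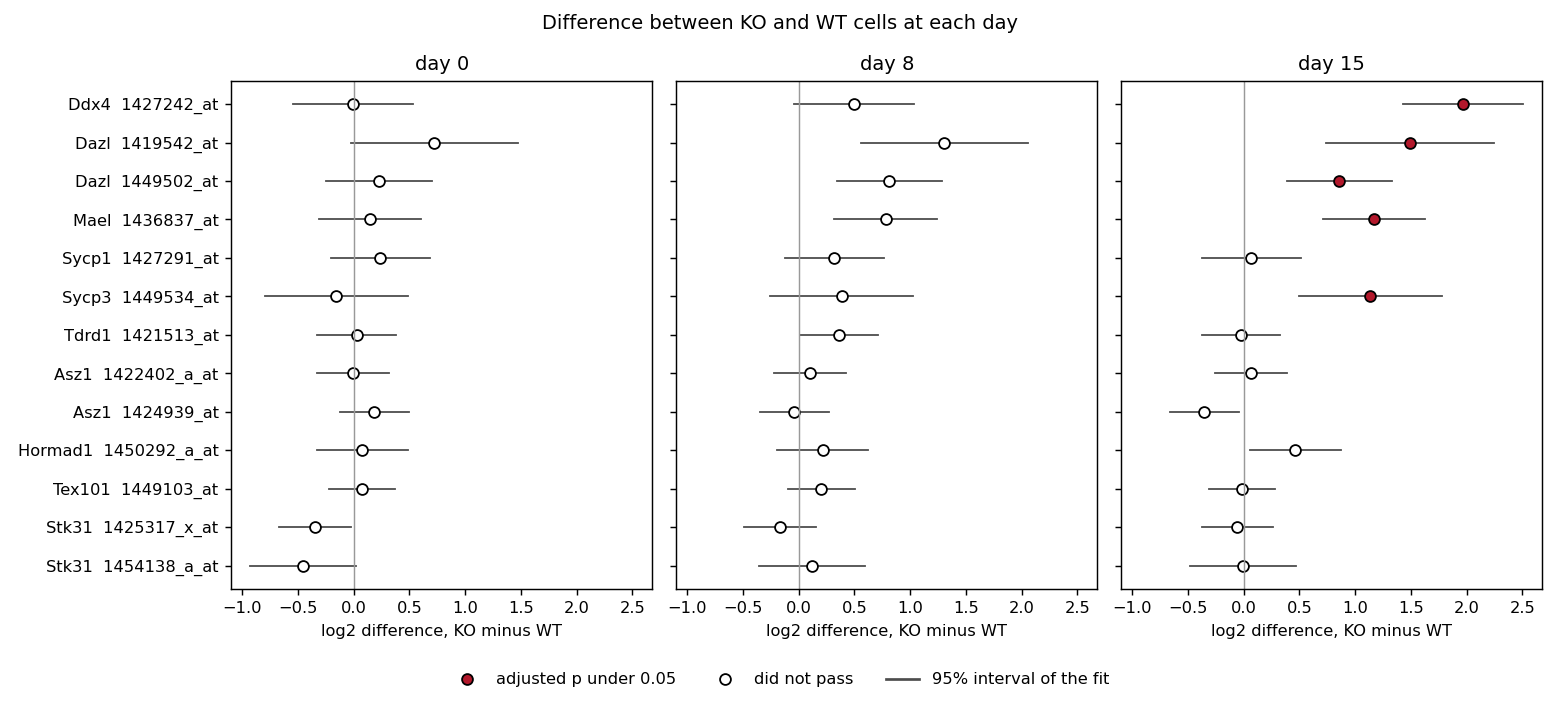
The log2 difference, KO minus WT, is plotted for each of the 13 probe sets at days 0, 8 and 15, with the 95% interval of the limma fit, and filled points passed an adjusted p under 0.05. The 5 filled points, all at day 15, belong to *Ddx4*, *Dazl* (both probe sets), *Mael* and *Sycp3*, and lie between 0.86 and 1.97.

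Between days 8 and 15, 2 of the 13 probe sets fell in WT cells and none passed in KO cells. In WT cells *Ddx4* was at 7.74 and 15.3 at day 15, against 33.2 and 36.2 at day 8, a log2 change of -1.67 (standard error 0.25, limma adjusted p = 0.00146). *Sycp3* was at 18.9 and 35.9 at day 15, against 84.1 and 59.6 at day 8, a change of -1.44 (standard error 0.29, adjusted p = 0.00771). Limma called 9.16% of all probe sets lower there and 6.89% higher. With only the WT arrays of both days in the fit neither passed, at the same log2 changes of -1.67 and -1.44. *Mael* had 7.74 and 9.48 at day 15 and 9.88 and 10.7 at day 8 in WT cells, a change of -0.26 (adjusted p = 0.479).

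In KO cells no probe set of the 13 passed between days 8 and 15, where limma called 0.02% of all probe sets in either direction. These counts depend on the pooled spread, since limma called 9 probe sets in KO cells and 7227 in WT cells when all arrays were fitted, against 1273 in KO cells and 367 in WT cells when only the arrays compared were. *Ddx4* had 42.5 and 42.8 at day 15, against 46.0 and 52.1 at day 8, a change of -0.20 (adjusted p = 0.835). *Sycp3* had a change of -0.69 (adjusted p = 0.425), and was the only one of the 13 with an unadjusted p under 0.05, against 10.8% of all probe sets. The arrays of days 15 and 8 overlapped for both *Dazl* probe sets, with changes of 0.51 and 0.17.

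The difference between the genotypes was also tested against time. The day 0 arrays had another scale and another minimum, so in comparisons with day 0 a change of the genotype difference with time and one with processing cannot be told apart. Between day 0 and day 15 the genotype difference grew by 1.98 on the log2 scale for *Ddx4* (standard error 0.35, limma adjusted p = 0.0130), the 1 call among the 13, where 1.89% of all probe sets were called higher. *Mael* had an interaction of 1.02 (adjusted p = 0.0780) and *Sycp3* of 1.29 (adjusted p = 0.108). The call for *Ddx4* was lost when any 1 of 4 arrays was left out, namely either WT array of day 0, KO replicate 2 of day 0 or KO replicate 1 of day 15, and over the 8 arrays left out in turn its value lay between 1.48 and 2.47. Between days 8 and 15 none of the 13 passed, with *Ddx4* at 1.47 (adjusted p = 0.118) and 0.422% of all probe sets called. *Ddx4* was the only one with an unadjusted p under 0.05 there, against 12% of all probe sets. Between days 0 and 8 none passed, none had an unadjusted p under 0.05, against 8.72% of all probe sets, and limma called 0% of all.

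The other germline genes give the setting for the 10. Of 13 further measured genes of the piRNA pathway and germ granule, 4 were higher in KO than in WT cells at day 15. None was lower, and the median was 0.22. Of all probe sets limma called 6.45% higher and 6.45% lower at that day. *Gtsf1*, a zinc finger protein that Piwi proteins need for silencing, had 59.9 and 62.0 in KO cells, against 21.9 and 35.3 in WT cells (log2 difference 1.13, limma adjusted p = 0.0119). It was already higher in KO than in WT cells at day 8, with 86.0 and 84.8 in KO cells against 37.6 and 36.0 in WT cells (1.22, adjusted p = 0.0431). *Tdrd12*, a Tudor protein with a helicase domain, had 78.6 and 100.1 in KO cells at day 15 and 27.8 and 48.1 in WT cells (1.28, adjusted p = 0.00964).

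*Gpat2*, a membrane protein of the same pathway, had 49.0 and 55.3 in KO cells at day 15, against 21.3 and 31.4 in WT cells (log2 difference 1.01, limma adjusted p = 0.0286). *Tdrd5*, named after its values were seen, was higher by 0.71 (adjusted p = 0.0429). *Piwil2*, a Piwi protein, was higher in KO cells at day 8, with 36.9 and 36.2 against 17.0 and 17.1 in WT cells (1.10, limma adjusted p = 0.0398). It had 21.0 and 34.0 in KO cells and 14.4 and 19.4 in WT cells at day 15 (0.68, adjusted p = 0.0641).

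Of 23 further meiosis genes, 5 were higher in KO than in WT cells at day 15 and none was lower, with a median of 0.39. The share of all probe sets called was 6.45% each way. *Rec114*, which works in the formation of meiotic DNA breaks, had 148 and 174 in KO cells, against 47.4 and 49.1 in WT cells (log2 difference 1.74, limma adjusted p = 0.000124). *Meioc*, which guards the entry into meiosis, had 31.0 and 35.2 in KO cells, against 11.1 and 13.6 in WT cells (1.43, adjusted p = 0.000953). Both were already higher in KO than in WT cells at day 8, by 1.49. *Smc1b*, a meiotic cohesin subunit, differed by 0.89 at day 15, and *Mnd1*, a partner of the meiotic recombinase, by 0.85. The recombinase *Dmc1*, named after its values were seen, differed by 0.58 (adjusted p = 0.0339).

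Limma called 0.0488% of all probe sets at day 0 and 1.13% at day 8 in either direction, and 6.45% each way at day 15. Of 15 germline genes outside these roles, none passed at these days. Among them *Rhox5*, *Rhox6* and *Rhox9*, homeobox genes of the reproductive cluster on the X chromosome and named after their values were seen, stood out on WT replicate 2 of day 15. *Rhox5* had 862 and 634 in KO cells, against 719 and 3551 in WT cells. The summed intensity of this list at day 15 was 1334 and 1572 on the KO arrays, and 1314 and 4976 on the WT arrays. None of 12 genes of mature sperm passed at any day, and at day 15 their summed intensities were 277 to 307 in KO cells and 271 to 278 in WT cells. Of 10 genes of the gonadal soma 3 passed at day 15, all with KO cells below WT cells, *Wt1* (-2.06), *Inha* (-1.06) and *Gata4* (-0.62). The remaining genes of this list leaned the other way without passing, at 0.04 to 0.48, and the list median was 0.15.

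Genes that write or remove DNA methylation differed as well. Of 10 measured, 4 were higher in KO than in WT cells at day 15 and 1 was lower, with a median of 0.24. Among all probe sets the share called was 6.45% each way. *Dnmt3b*, a de novo methyltransferase, had 4003 and 3145 in KO cells, against 417 and 546 in WT cells (log2 difference 2.90, limma adjusted p = 0.000182). *Dnmt3l*, its catalytically inactive partner, had 583 and 463 in KO cells, against 57.3 and 107 in WT cells (2.73, adjusted p = 0.000162), and was higher by 1.58 at day 8. *Tet1*, which oxidises methylated cytosine, was higher by 1.06, and *Gadd45b*, named after its values were seen, by 0.79. *Dnmt3a*, the other de novo enzyme, had 888 and 974 in KO cells, against 1799 and 1200 in WT cells (-0.66, adjusted p = 0.0390). *Dnmt1* had 1025 and 1218 in KO cells and 1334 and 1315 in WT cells (-0.25, adjusted p = 0.145). *Uhrf1*, which brings *Dnmt1* to newly copied DNA, differed by 0.38 (adjusted p = 0.138).

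Of 19 repressor genes, PRC1.6 subunits among them, 5 were higher and 2 lower in KO than in WT cells at day 15. The median of the list was 0.20, and 6.45% of all probe sets were called each way. *E2f6* had 349 and 440 in KO cells, against 837 and 744 in WT cells (log2 difference -1.01, limma adjusted p = 0.00154). The subunits *L3mbtl2* (0.95, adjusted p = 0.00333) and *Pcgf6* (0.62, adjusted p = 0.0250) were higher, and so were *Wdr5* (0.66) and *Hdac1* (0.48). *Cbx1* (0.45) was the last of the 5 higher genes and *Yaf2* (-0.47) the other lower one, both named after their values were seen. *Mga* differed by 0.33 (adjusted p = 0.200) and *Setdb1*, a histone H3K9 methyltransferase, by 0.34 (adjusted p = 0.0986). At day 0 no gene of either list passed.

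Genes of pluripotent cells were also higher in KO cells. Of 16, 14 were higher in KO than in WT cells at day 15 and none was lower, against 6.45% of all probe sets called each way. The median of these genes was 2.39. Their summed intensity was 22197 to 23517 in KO cells and 3379 to 9523 in WT cells, and at day 8 it was 27310 to 29761 in KO cells and 16992 to 20203 in WT cells. *Pou5f1* had 2259 and 1909 in KO cells at day 15, against 108 and 281 in WT cells (log2 difference 3.58, limma adjusted p = 0.000895). The same WT array, replicate 1, was the lower one for *Pou5f1*, *Nanog* and all 5 probe sets that passed. Their part in the germline result was not tested.

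Fibroblast genes went the other way. Of 15, 10 passed at day 15 with KO cells below WT cells and none with KO cells above. Among all probe sets 6.45% were called each way. The median difference of the fibroblast genes was -2.04. Their summed intensity was 17998 to 23466 in KO cells and 70759 to 93407 in WT cells, and *Pdgfra*, a receptor of mesenchymal cells, had 521 and 533 in KO cells, against 2731 and 2335 in WT cells. Of 10 genes of germ cell specification, 5 were higher and 1 lower in KO than in WT cells at day 15, with a median of 0.83. Here too the share of all probe sets was 6.45% each way. *Prdm14*, a regulator that germ cell precursors and ES cells share, had 89.3 and 73.1 in KO cells, against 19.8 and 41.1 in WT cells. *Lin28a* (1.54), *Sall4* (1.42) and *Dppa3* (0.97), which ES cells also use, were higher as well, and *Sall4* stands in both lists. *Tfap2c* (1.00) was also higher and *Tfap2a* (-0.60) lower, both named after their values were seen. *Ifitm3*, a membrane protein of early germ cells, was higher in KO cells at day 8, with 5523 and 4806 against 3534 and 2790 in WT cells (0.71, limma adjusted p = 0.0380), and differed by 0.37 at day 15 (adjusted p = 0.109). *Prdm1*, which starts the germ cell programme in the embryo, had 132 and 135 in KO cells and 59.2 and 116 in WT cells (0.69, adjusted p = 0.109). The part of these lists in the result was not tested either.

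**Figure D5:**
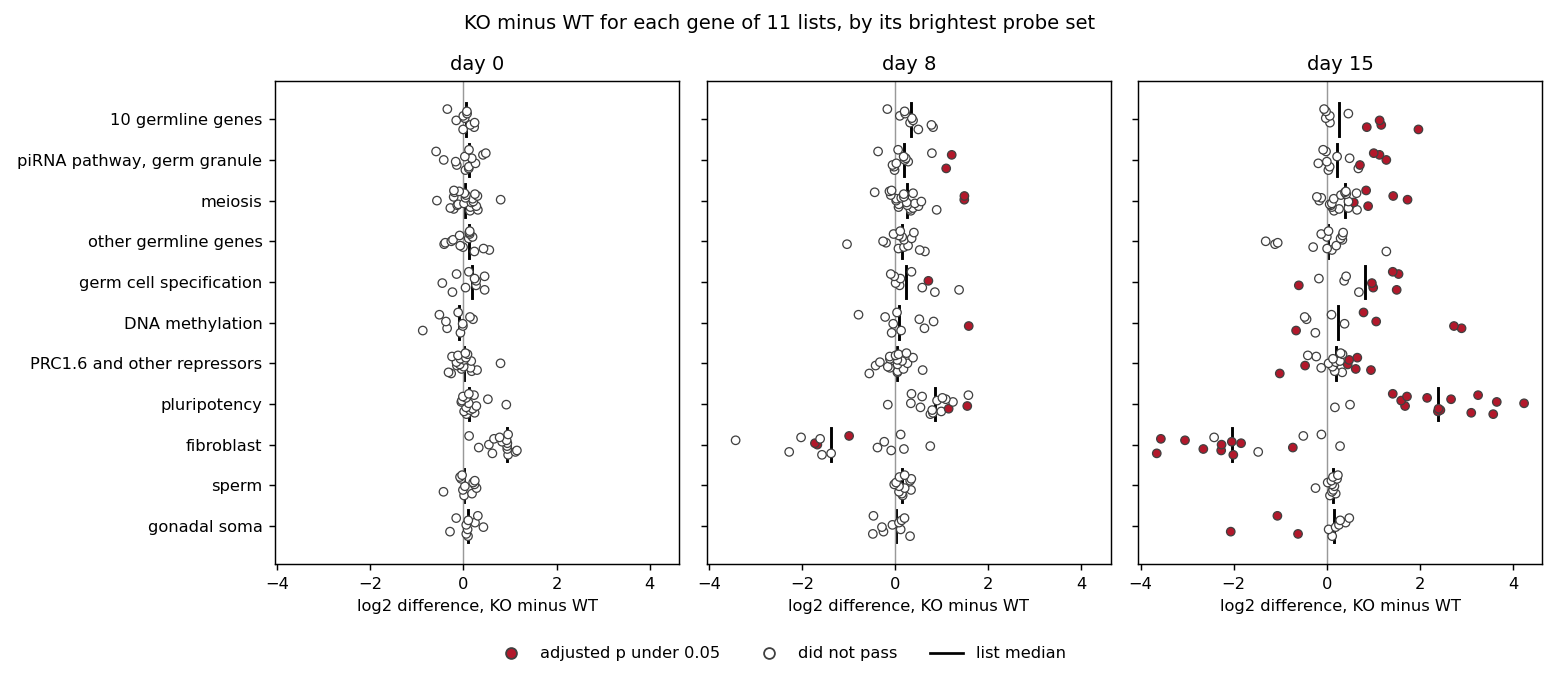
The log2 difference, KO minus WT, is plotted for each gene of 11 lists at days 0, 8 and 15, read from its brightest probe set, with filled points for an adjusted p under 0.05 and a bar for the list median. At day 15 the medians are 0.27 for the 10 germline genes, 2.39 for pluripotency and -2.04 for fibroblasts, and mature sperm genes have no filled point.

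Over the 8 arrays of days 8 and 15, the genes whose log2 intensity ran most like *Ddx4* were *Timmdc1*, *Thyn1* and *Cdh1*, with Pearson correlations of 0.995, 0.994 and 0.993. *Cdh1* is the cadherin of epithelial and ES cells. For *Sycp3* they were *Upp1* (0.995), *Ap1s3* (0.993) and *Ppp2r5c* (0.992). For *Dazl* on 1449502_at they were *Usp17la* (0.981), *Zfp560* (0.969) and *Pga5* (0.966), and for *Mael* *Pml* (0.967), *Cpped1* (0.965) and *Ak1* (0.964). For *Sycp1* they were *Gm4787* (0.979), *4930474N09Rik* (0.978) and *1700031L13Rik* (0.941). For *Hormad1* they were *Tomm34* (0.972), *Aldh1a3* (0.969) and *Mymx* (0.963), and for *Stk31* on 1425317_x_at *Zw10* (0.963), *Fst* (0.958) and *Aco1* (0.955). All *Stk31* values at days 8 and 15 lay under the lower quartile of their arrays. No gene stood among the 3 nearest of more than 1 of these members. These values describe arrays that share 4 groups. Among 18193 genes, each read from its brightest probe set, high correlations over 8 arrays are easily found.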

How the data were processed

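RNA was measured on 12 Affymetrix 430 2.0 arrays, 2 in each of the 6 groups named in the labels. The authors deposited linear intensities, 1 per probe set and array. The submitters' processing notes name MAS5, without a version. The day 0 columns have 2 decimals and a minimum of 1, and a scale of their own.

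Of 45101 probe sets 64 controls were left out. Among the 45037 tested, the platform annotation gives 34945 a single gene symbol, 932 several and 9160 none. After any intensity under 1 was raised to 1, log2 intensities entered limma 3.58.1 (statmod 1.5.0, R 4.3.3), in which each group had its own mean and the variances were moderated robustly along an intensity trend. P-values are two-sided and Benjamini-Hochberg adjusted over all 45037, and 0.05 was the threshold. The comparisons are KO against WT at each day, day 15 against day 8 within a genotype, and 3 interactions. The fit was also run on simulated data in which the spreads were shuffled among probe sets. That run does not show how the fit behaves for dim probe sets. Promoters are RefSeq windows of GRCm38.p6, found by symbol for 10 of 10 members. Python 3.11.15 made tables (pandas 2.3.3, numpy 2.4.6) and figures (matplotlib 3.10.9).

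The members and the gene lists were chosen with earlier results of these data known. The text names all 10 members, up to 4 genes of each other list that passed a KO against WT test, by smallest adjusted p, a fixed set of 15 genes whatever they did, and the 3 genes most correlated with each member that rose above an array median. Others are marked. A listed gene was read from its brightest probe set. Genes without a probe set of their own, *Tdrd6*, *Fkbp6*, *Hfm1*, *Nanos2*, *Nanos3*, *Tdg* and *Rybp* among them, were not analysed here.

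Alternatives were an added 32 before the log2, quantile normalization, median centring, dropping dim probe sets, plain moderation, the replicate number as a block, fitting only the arrays compared, the methods' t-test, averaging a gene's probe sets, and leaving out each array.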

Additional observations from a re-analysis of the deposited data

Results flagged for a closer look

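Each of these results stands out because the difference between KO and WT cells itself changed between days, by the interaction of the limma fit. For changes from day 0, whose arrays had another scale and minimum, a change with time and one with processing cannot be told apart. Between day 0 and day 15 the change of the log2 difference was 1.98 for *Ddx4* (limma adjusted p = 0.0130), the only one of the 10 germline genes. Among further germline genes it was 1.70 for *Tdrd12* (adjusted p = 0.0292), 1.13 for *Meioc* (0.0392) and 0.94 for *Rec114* (0.0359). Among genes of DNA methylation it was 3.25 for *Dnmt3b* (0.00242), 2.75 for *Dnmt3l* (0.00351) and 1.44 for *Tet1* (0.0112). Pluripotency genes had 4.13 for *Tdgf1* (0.00815), 3.70 for *Eras* (0.00258), 3.51 for *Pou5f1* (0.0134), 2.86 for *Nanog* (0.0177), 2.37 for *Sox2* (0.00788) and 2.20 for *Esrrb* (0.00568). Fibroblast genes had -3.60 for *Col6a2* (0.00258), -3.42 for *Col6a1* (0.00554), -2.81 for *Pdgfra* (0.00176) and -2.78 for *Pdgfrb* (0.00370), and *Inha* of the gonadal soma had -1.37 (0.0159).

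Between day 8 and day 15 the change was 3.90 for *Tdgf1* (limma adjusted p = 0.0328), 2.41 for *Eras* (0.0444), 2.27 for *Dnmt3b* (0.0306) and -2.84 for *Col6a2* (0.0220), and none of the 10 germline genes passed, nor any of the further piRNA, meiosis and other germline genes.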

How the results depend on the processing

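With 2 arrays in a group and 9 of the 13 probe sets under the array median from day 8 on, small differences of the 10 germline genes could not be resolved. Quantile normalization, centring, the 9 probe sets of 7 genes that the filter on dim probe sets kept, and no trend or robust moderation each gave the same 5 calls at day 15.

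At day 15 the count of 5 calls became 2 with an offset of 32, 2 with only the arrays compared and 0 with the 2-group test of the methods, and leaving out 1 array gave 2 to 6. For day 15 against day 8 in WT cells the 2 calls became 0 with only the arrays compared and 0 with the 2-group test, and 1 to 3 with 1 array left out. For the interaction between days 0 and 15 the 1 call became 2 with only the arrays compared, and 0 to 2 with 1 array left out. For the interaction between days 8 and 15 leaving out 1 array gave 0 to 1. The 2-group test was not run on the interactions. Causes were not tested.

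The replicate numbers were not treated as pairs. The correlation of same-numbered deviations over all probe sets was 0.01 at day 0, 0.04 at day 8 and -0.06 at day 15. Such a value cannot exclude a shared handling that touches only part of the probe sets. With the number as a replicate block, 4 probe sets passed at day 15, without *Sycp3*, and 1 at day 8 in place of 0, *Dazl* on 1419542_at (1.31, limma adjusted p = 0.0443).

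Counted per difference and setting, 3 cases turned their sign under a setting other than a left-out array, and none of these differences had passed. *Stk31* on 1454138_a_at at day 15 came to 0.0011 with an offset of 32, and *Tdrd1* at day 0 to -0.014 with quantile normalization and -0.013 with centring. With 1 array left out, differences that had not passed also changed sign. At day 0 they ranged from -0.11 to 0.097 for *Ddx4*, -0.030 to 0.51 for *Sycp1*, -0.035 to 0.089 for *Tdrd1*, -0.082 to 0.074 for *Asz1* on 1422402_a_at, -0.039 to 0.19 for *Hormad1* and -0.029 to 0.18 for *Tex101*. At day 8 they ranged from -0.15 to 0.073 for *Asz1* on 1424939_at and -0.011 to 0.25 for *Stk31* on 1454138_a_at. At day 15 they ranged from -0.089 to 0.22 for *Sycp1*, -0.17 to 0.13 for *Tdrd1*, -0.10 to 0.23 for *Asz1* on 1422402_a_at, -0.15 to 0.11 for *Tex101*, and -0.17 to 0.055 and -0.23 to 0.22 for the 2 probe sets of *Stk31*. Over the members and the other named genes together, each difference was also counted once per setting other than a left-out array. In 87 of these cases a call was lost, and 567 kept sign and outcome. The 567 include differences that had not passed to begin with, so they do not measure how stable the calls are.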

Other observations

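Between days 8 and 15 in WT cells, where limma called 9.16% of all probe sets lower and 6.89% higher, 4 of the 23 further meiosis genes fell and none rose, *Mnd1* by 1.24 on the log2 scale, *Tex15* by 1.02, *Trip13* by 0.94 and *Rec114* by 0.66, and of the piRNA genes *Tdrd12* fell by 1.77. In KO cells no gene of either list passed between these days. Of the 19 repressor genes 8 fell and 1 rose in WT cells over the same days, *L3mbtl2* by 0.84 and *Pcgf6* by 0.79 among those that fell. *Tex15*, *Trip13* and the genes that differed by direction here were named after their values were seen. The interaction of genotype with these days passed for no gene of the 3 lists.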
